A study of Mus musculus with 14 samples.

Results

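The 10 transcription factors Gata3, Rora, Id2, Bcl11b, Gfi1, Tcf7, Ets1, Zbtb16, Tox and Nfil3 were followed at the RNA level in group 2 innate lymphoid cells (ILC2s) of the mouse lung. They were taken by symbol from a list of regulators of ILC2 development, chosen with earlier results of these data known. Each was found among the 53278 genes of the deposited count and TPM tables. All 10 passed the filter on low counts in both comparisons described here.

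RNA-seq libraries were made from 14 individual female mice, whose lung cells were sorted as live, lineage-, CD90.2+ and CD3-. In the stimulation experiment, 4 Unstimulated and 4 IL-33 stimulated libraries came from separate B6 mice, and the stimulated cells received 20 ng/mL IL-33 for 24 h in complete RPMI. The Unstimulated cells are described both as cultured in the same medium without cytokine and as ex vivo cells, so that IL-33 and time in culture cannot be told apart with certainty in this experiment. In the Blimp-1 experiment, 3 Control (ControlIL7RaCre) and 3 Blimp-1-deficient (Blimp-1IL7RaCre) libraries were compared, both after 72 h with IL-33 and IL-25 at 20 ng/mL each (the study's methods also name IL-2, which the labels do not), so that no group of that experiment was unstimulated. The Cre recombinase was driven by Il7r, which is active in lymphoid progenitors, so that deletion was not limited to ILC2s. The labels give no ages, beyond saying that the mice of the Blimp-1 experiment were matched for age. Each experiment was tabulated on its own, and values were tested only within an experiment.

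Innate lymphoid cells arise from lymphoid progenitors that shut off the B and T cell fates. NFIL3, TOX, TCF-1 (the product of Tcf7), ETS1, ID2 and PLZF (the product of Zbtb16) act along that early path, with ID2 blocking the E proteins that drive B and T cell fates. GATA3, RORα, BCL11B and GFI1 act later and give ILC2s their identity, GATA3 being needed for the genes of type 2 cytokines as well as for the cell itself. Mature ILC2s keep many of these factors, while Zbtb16 is high in progenitors and is mostly lost afterwards.

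Total counts ranged from 10470125 to 76448945 per library. A pair of libraries stood apart. IL-33 stimulated replicate 3 had the fewest counts and carried 3734 CPM (counts scaled to a library of 1e+06) summed over 10 neuronal and glial markers, against 104 to 120 in the other stimulated and 219 to 251 in the Unstimulated libraries; this marker list was put together after the values had been seen. Control replicate 2 had 76.8% of its counts on 7 loci, among them Lars2 and the mitochondrial ribosomal RNA gene mt-Rnr2, against at most 4.12% in any other library, and 2691 CPM over 7 epithelial and stromal markers, against 179 and 252 in the other Controls. The fold changes of the members are therefore given with and without the library concerned. Those of other genes are often given with all libraries only. Il1rl1, the IL-33 receptor, was at 1096 CPM or more in every library, whereas the ILC2 marker Ptgdr2 did not exceed 0.69 CPM in any. Prdm1, which encodes Blimp-1 and was the deleted gene, was at 75.2, 92.8 and 74.0 CPM in Control and 14.6, 11.5 and 11.4 CPM in Blimp-1-deficient libraries (log2 fold change -2.68 ± 0.15 SE, edgeR adjusted p = 0.00441, and -2.57 ± 0.11, adjusted p = 1.34e-04, without Control replicate 2). In the stimulation experiment it was at 64.5 to 95.9 CPM in Unstimulated and 34.5 to 76.9 CPM in stimulated libraries, with overlap (-0.43 ± 0.25, adjusted p = 0.213).

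**Figure D1:**
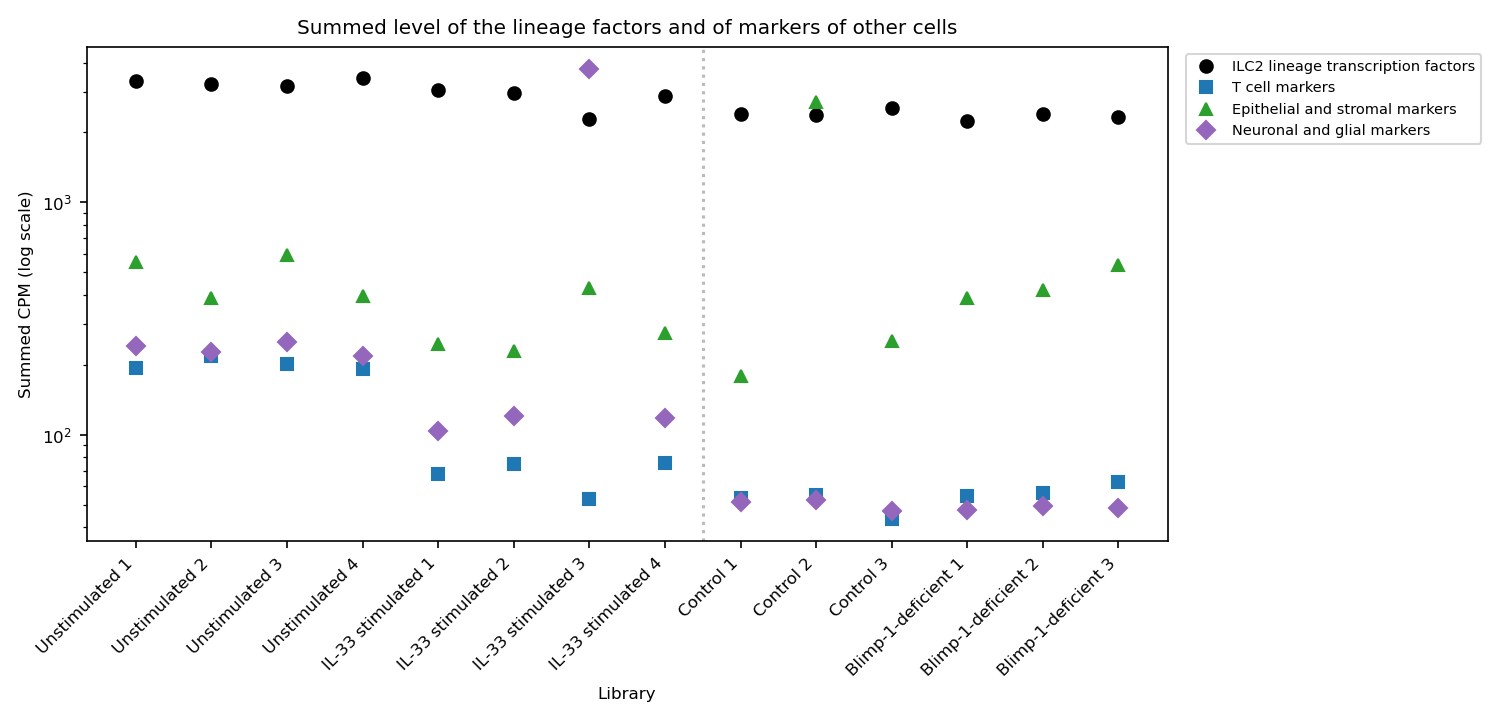
Summed CPM (log scale) of the 10 lineage factors and of markers of T cells, of epithelial and stromal cells and of neurons and glia, by library; the dotted line parts the experiments. The neuronal sum reached 3734 CPM in IL-33 stimulated replicate 3 and the epithelial and stromal sum 2691 CPM in Control replicate 2.

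All 10 members are protein-coding genes (coordinates on GRCm38, GENCODE M21). The early factors lie at chr13:52967209-52981073 (Nfil3), chr4:6686353-6991557 (Tox), chr11:52252371-52283014 (Tcf7), chr9:32636221-32757820 (Ets1), chr12:25093799-25097140 (Id2) and chr9:48654297-48836222 (Zbtb16), of which Ets1 alone is on the plus strand. The later factors lie at chr2:9857078-9890034 (Gata3, minus), chr9:68653786-69388246 (Rora, plus), chr12:107910403-108003602 (Bcl11b, minus) and chr5:107716657-107726036 (Gfi1, minus). Exons of other genes overlapped 3.90% (Gm13256, opposite strand) and 1.94% (9230102O04Rik, same strand) of the exon bases of Gata3, and at most 3.42% of those of Rora, Gfi1 and Tox. Whether counting used the strand is not given in the sources used here, so reads in these stretches cannot be assigned to one gene.

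RefSeq start sites (GRCm38.p6) were given for 7 of the 10 members, with 9 entries, and not for Ets1, Zbtb16 and Tox. Windows of 250 bases upstream of each start were searched on both strands for GAAAGT, a core of sites bound by Blimp-1 that overlaps the sites of IRF factors, for GATAA, a core of GATA sites, and for the kappaB consensus. GAAAGT was in 1 of the 9 windows and in 12.3% of all 32851 such windows, GATAA in 1 of 9 against 22.6%, and the kappaB consensus in 1 of 9 against 7.25%. The windows of Rora and of the second Gfi1 entry are shown because these genes moved in opposite directions in Blimp-1-deficient libraries without Control replicate 2, and because the Gfi1 window held the GAAAGT match (its reverse complement is in capitals); neither window overlaps an annotated exon.
Rora, chr9:68653536-68653785, plus strand: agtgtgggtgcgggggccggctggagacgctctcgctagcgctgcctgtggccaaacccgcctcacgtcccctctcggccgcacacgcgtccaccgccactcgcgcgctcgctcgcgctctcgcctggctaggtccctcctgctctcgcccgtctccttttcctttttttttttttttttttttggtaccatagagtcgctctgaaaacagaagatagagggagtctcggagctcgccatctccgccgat
Gfi1, chr5:107724344-107724593, minus strand: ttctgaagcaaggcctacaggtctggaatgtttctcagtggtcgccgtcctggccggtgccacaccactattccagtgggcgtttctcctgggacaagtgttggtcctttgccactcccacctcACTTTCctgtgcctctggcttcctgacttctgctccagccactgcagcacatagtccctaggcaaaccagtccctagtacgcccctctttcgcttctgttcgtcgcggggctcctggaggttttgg

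Levels were compared between genes in TPM (transcript abundance scaled to a sum of 1e+06), which is scaled by gene length. Id2 was the highest of the members in all 14 libraries, followed by Gata3 and then Ets1, also in all 14. In Unstimulated libraries the mean TPM was 1194 ± 65 (SD, n = 4) for Id2, 885 ± 34 for Gata3 and 299 ± 20 for Ets1. Id2 was 1.30 to 1.38 times as high as Gata3 there and 1.65 to 1.70 times as high in IL-33 stimulated libraries. Bcl11b and Rora came next and did not part beyond their spread in Unstimulated libraries, where Bcl11b was above Rora in 3 of 4, with ratios of 0.967 to 1.11. Gfi1 and Nfil3 followed, at 49.9 ± 7.2 and 32.9 ± 3.5 TPM.

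Tcf7, Tox and Zbtb16 had the lowest TPM of the members in each group, with the order of Tcf7 and Tox differing between groups. In Unstimulated libraries Tcf7 was above Tox in 3 of 4. In IL-33 stimulated libraries Tox was above Tcf7 in 4 of 4, by 1.41 to 2.23 times, and in Control libraries in 3 of 3, by 1.19 to 4.21 times. In Blimp-1-deficient libraries Tcf7 was above Tox in 3 of 3, by 1.06 to 1.74 times. Zbtb16 did not exceed 2.68 TPM in any library except IL-33 stimulated replicate 3, where it was at 7.12 TPM and above Tcf7. Bcl11b, Gfi1 and Nfil3 had no order in Control that held in every library, since Bcl11b was above Gfi1 in only 1 of 3 and Nfil3 above Bcl11b in 2 of 3.

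**Figure D2:**
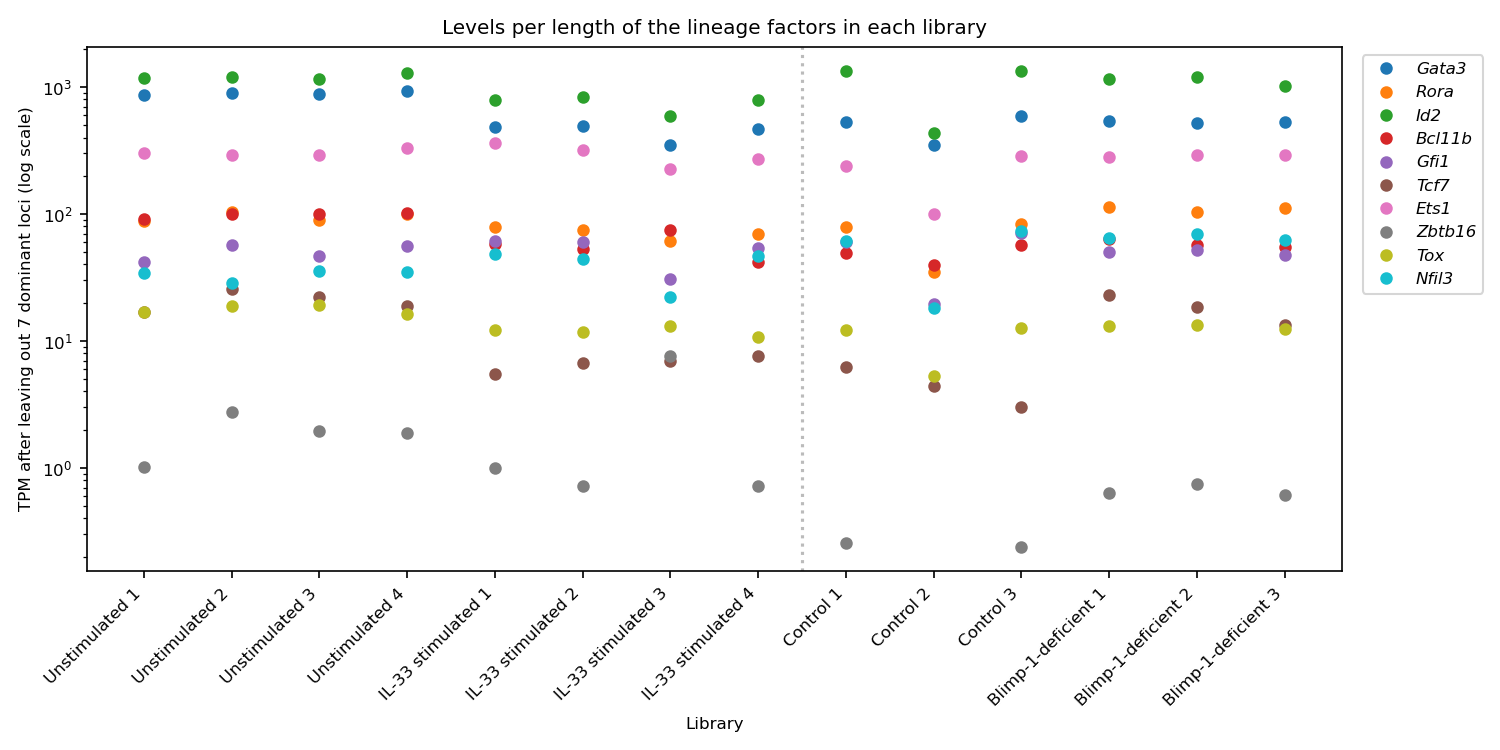
TPM of each lineage factor (log scale) in each of the 14 libraries, rescaled after leaving out the 7 loci that took most of Control replicate 2; points are single libraries, the dotted line parts the experiments, and Zbtb16 at 0 in Control replicate 2 is not drawn. Id2, Gata3 and Ets1 lead in every library, and Tcf7 lies above Tox in all 3 Blimp-1-deficient libraries and below it in all 3 Control libraries.

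The first comparison asked how IL-33 for 24 h changed the lineage factors. Tcf7, Gata3, Bcl11b and Id2 were lower in stimulated libraries and no member was higher (4 of 10 called by edgeR; 32.3% of the 15466 genes tested were called, 16.2% as higher and 16.1% as lower). At an unadjusted edgeR p below 0.05, which 6789 of the 15466 genes met in either direction, Nfil3 was the only member higher. DESeq2 called 3317 genes as higher, Nfil3 among them, and 3201 as lower in the same 8 libraries. Without IL-33 stimulated replicate 3, Gfi1, Ets1 and Nfil3 were higher, Tcf7, Zbtb16, Bcl11b, Gata3, Tox and Id2 were lower, and only Rora was not called (9 of 10, against 57.2% of all genes tested, 27.5% as higher and 29.7% as lower). The groups did not overlap for 4 of 10 members with all libraries (37.9% of all genes) and for 8 of 10 without that library (58.7%). The median log2 fold change of the members was -0.18, beside 0.06 over all genes, and -0.29 beside -0.05 without replicate 3.

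**Figure D3:**
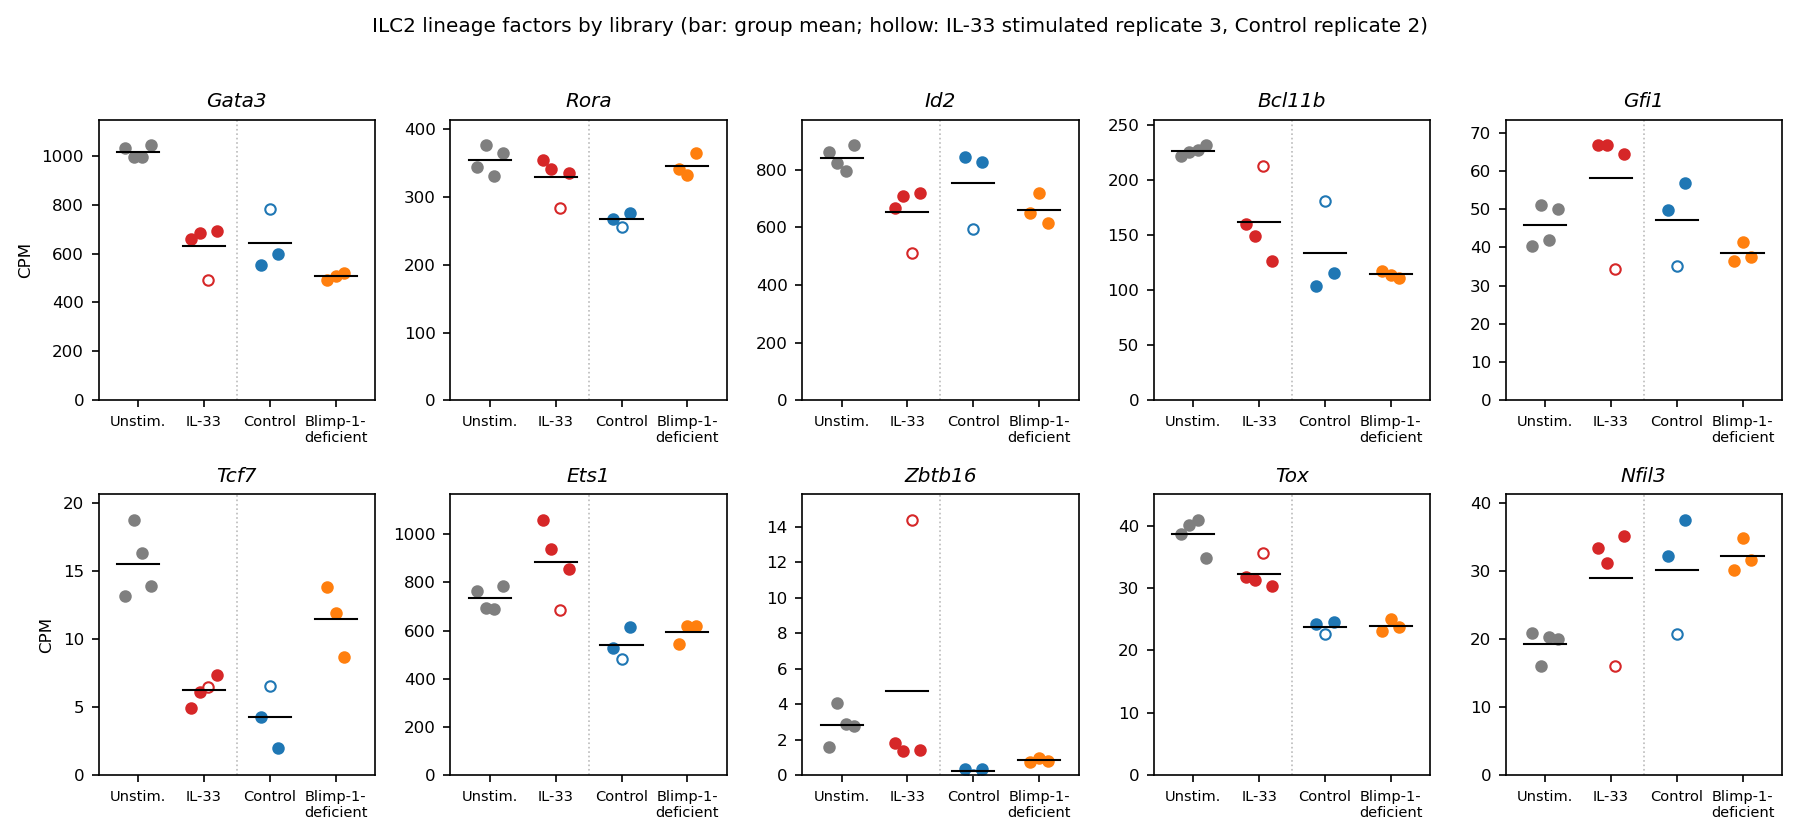
CPM of each lineage factor by library in the 4 groups, on linear axes from 0; bars are group means and hollow points are IL-33 stimulated replicate 3 and Control replicate 2. The dotted lines part the experiments, which were normalised separately. Gata3 and Tcf7 show no overlap between Unstimulated and IL-33 stimulated libraries.

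Tcf7, which encodes TCF-1 and is among the earliest factors of the ILC path, had the largest fold change of the called members. It was at 13.2, 18.8, 16.4 and 13.9 CPM in Unstimulated libraries and at 4.93, 6.12, 6.501 and 7.40 CPM after IL-33. Every stimulated library was below every Unstimulated one. Its log2 fold change was -1.32 ± 0.19 (SE, edgeR adjusted p = 0.00119), or 0.401-fold, and -1.34 ± 0.17 without replicate 3 (adjusted p = 9.88e-05). The call held in all 26 alternatives run.

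Id2, the inhibitor of E proteins, was at 863, 822, 795 and 885 CPM in Unstimulated libraries and at 667, 709, 511 and 719 CPM after IL-33. The groups did not overlap, and the lowest value was that of replicate 3. On the log2 scale the change was -0.37 ± 0.12 (edgeR adjusted p = 0.0426), and -0.27 ± 0.06 without replicate 3 (adjusted p = 0.00262). Leaving out single libraries moved its adjusted p to between 0.00262 and 0.0874, and the call ended without IL-33 stimulated replicate 1, 2 or 4 or without Unstimulated replicate 3. It also ended with no filter on low counts (adjusted p = 0.146) and with the replicate block (0.0563).

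Nfil3 and Ets1, both needed early in the ILC path, lay higher in 3 of the 4 stimulated libraries. Nfil3 was at 20.8, 16.1, 20.3 and 19.9 CPM in Unstimulated libraries and at 33.35, 31.1, 16.1 and 35.1 CPM after IL-33. Replicate 3 was level with the lowest Unstimulated library and the other stimulated libraries were above the Unstimulated range. The fitted log2 difference was 0.59 ± 0.24 (edgeR adjusted p = 0.0953) and 0.79 ± 0.10 without replicate 3 (adjusted p = 7.47e-05). Ets1 was at 764, 695, 690.3 and 783 CPM in Unstimulated libraries and at 1059.6, 938, 686 and 854 CPM after IL-33, where replicate 3 was just below the Unstimulated range and the other stimulated libraries were above it. edgeR put the log2 fold change at 0.27 ± 0.13 (adjusted p = 0.150) and 0.38 ± 0.08 without replicate 3 (adjusted p = 0.00254).

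Tox, an HMG-box factor of early ILC progenitors, was at 34.8 to 41.0 CPM in Unstimulated libraries and at 31.8, 31.2, 35.7 and 30.3 CPM after IL-33. Replicate 3 alone reached into the Unstimulated range. This came to a log2 fold change of -0.26 ± 0.09 (edgeR adjusted p = 0.0544) and -0.31 ± 0.07 without replicate 3 (adjusted p = 0.00358).

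Zbtb16, which encodes PLZF, was low in 7 of the 8 libraries. It was at 1.60, 4.04, 2.89 and 2.77 CPM in Unstimulated libraries and at 1.81, 1.33, 14.4 and 1.42 CPM after IL-33, the highest value resting on 146 counts in replicate 3. The direction turned with that library. The log2 fold change was 0.72 ± 0.83 (edgeR adjusted p = 0.524) and -0.90 ± 0.30 without replicate 3 (adjusted p = 0.0283). The neuronal and glial marker sum of replicate 3 moved with this value, and its part in the result was not tested. Without replicate 3 the Zbtb16 call ended when Unstimulated replicate 2 or 3 or IL-33 stimulated replicate 2 or 4 was left out as well, with adjusted p up to 0.0971.

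Gata3, the factor most closely tied to ILC2 identity, was at 1029.65, 997, 996 and 1043 CPM in Unstimulated libraries and at 660.0, 683, 492 and 692 CPM after IL-33. The groups did not overlap, and replicate 3 was the lowest. The fitted log2 difference was -0.69 ± 0.12 (edgeR adjusted p = 0.00273), or 0.622-fold, and -0.58 ± 0.05 without replicate 3 (adjusted p = 4.6e-06). The call held in all 26 alternatives run. In the same libraries Il5 and Il13, type 2 cytokine genes, were higher by 4.98 ± 0.25 and 6.68 ± 0.45 on the log2 scale.

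Bcl11b, a zinc finger factor of ILC2s and T cells, was at 223, 226, 228 and 232 CPM in Unstimulated libraries and at 161, 149, 213 and 127 CPM after IL-33. Replicate 3 was the highest of the stimulated libraries and still below the Unstimulated range. edgeR put the log2 fold change at -0.49 ± 0.14 (adjusted p = 0.0346) and -0.64 ± 0.08 without replicate 3 (adjusted p = 5.44e-05). Leaving out any other single library ended the call, with adjusted p from 0.0564 to 0.196, as did RLE size factors (0.058) and a mean count of at least 50 (0.0509).

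Gfi1, a repressor that acts with GATA3 in ILC2s, was at 40.3, 51.0, 42.0 and 50.1 CPM in Unstimulated libraries and at 66.7, 66.8, 34.5 and 64.3 CPM after IL-33. Replicates 1, 2 and 4 were above all Unstimulated libraries and replicate 3 was below them all. This came to a log2 fold change of 0.34 ± 0.21 (edgeR adjusted p = 0.236) and 0.52 ± 0.09 without replicate 3 (adjusted p = 5.60e-04). Rora, which encodes the nuclear receptor RORα, was at 331 to 377 CPM in Unstimulated libraries and at 355, 341, 284 and 336 CPM after IL-33. On the log2 scale the change was -0.11 ± 0.09 (adjusted p = 0.353) and -0.04 ± 0.06 without replicate 3 (adjusted p = 0.556).

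The scale bears on the smaller of these changes. On log2(TPM + 1) without replicate 3, where the median of all genes was -0.28, Gfi1 was at 0.22 (limma adjusted p = 0.118) and Ets1 at 0.07 (adjusted p = 0.587), while Nfil3 remained higher at 0.47 (adjusted p = 0.00202). With all 8 libraries the TPM values of Gfi1 and Ets1 turned to -0.03 and -0.08. Rora was called lower on that scale, at -0.44 with all libraries (adjusted p = 0.0171), where the median of all genes was -0.25, and at -0.34 without replicate 3 (adjusted p = 0.00379). Gata3, Id2, Bcl11b, Tcf7 and Tox were below 0 under every scaling.

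**Figure D4:**
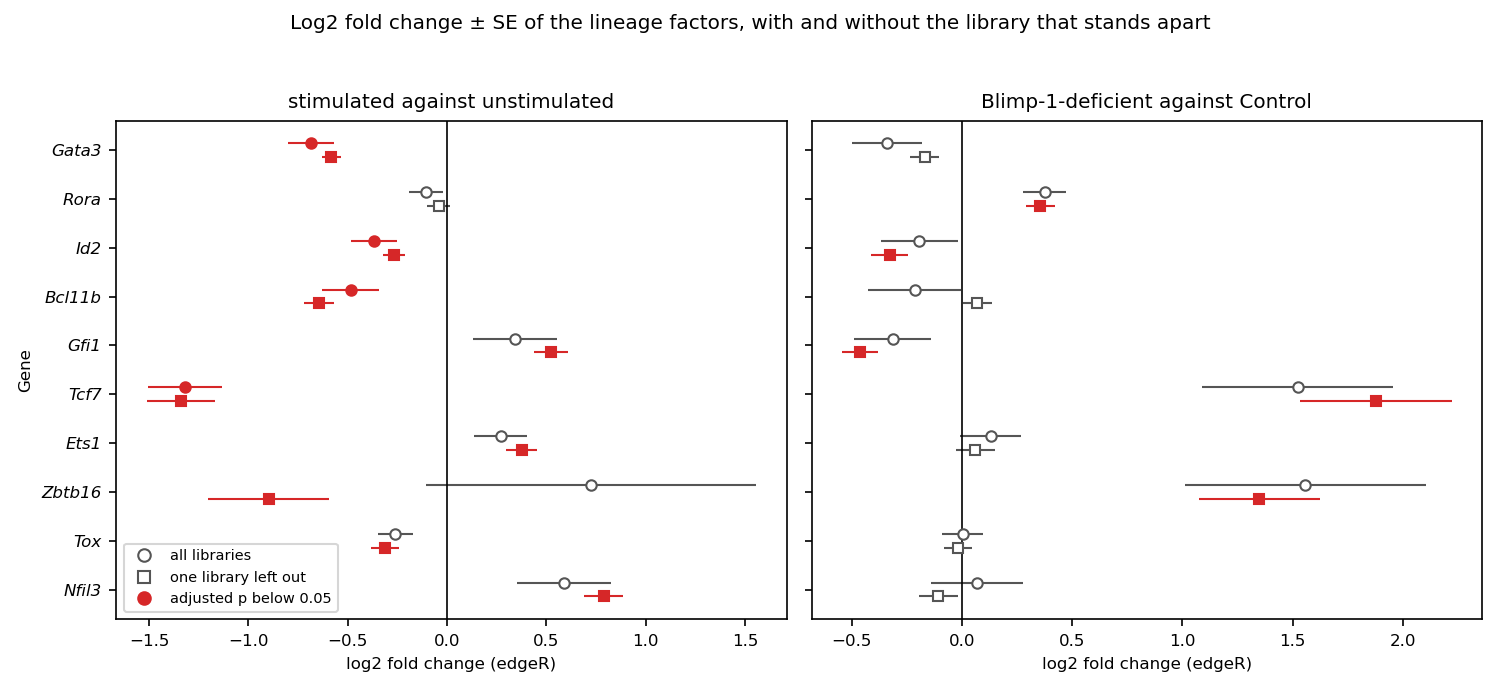
Log2 fold change ± SE (edgeR) of each lineage factor in both comparisons, with all libraries (circles) and without IL-33 stimulated replicate 3 or Control replicate 2 (squares); filled red symbols have an adjusted p below 0.05. Zbtb16 lies at 0.72 with all stimulation libraries and at -0.90 without replicate 3.

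RNA of T cell markers fell in the same comparison, and T cells also express Tcf7, Bcl11b and Ets1, of which Ets1 was not lower. The cells that this RNA came from were not identified. The summed CPM of 11 T cell markers was 192 to 217 in Unstimulated and 52.8 to 75.5 in stimulated libraries. Of these markers 5 were lower and 0 higher, and 6 were lower without replicate 3. Trbc2, a T cell receptor constant gene, held 114 to 122 CPM of this sum in Unstimulated and 24.2 to 35.2 CPM in stimulated libraries. Its log2 fold change was -1.86 ± 0.12, that of Cd3g -1.55 ± 0.17 and that of Trac -1.27 ± 0.39. Cd3e was at 4.86 to 9.48 CPM in Unstimulated and 1.67 to 5.25 CPM in stimulated libraries, and the sort had removed CD3+ cells. Epithelial and stromal markers fell as well, with 3 of 5 tested lower and 1 higher (4 and 1 without replicate 3), and summed to 389 to 592 CPM in Unstimulated and, without replicate 3, to 230.5 to 274 CPM in stimulated libraries. Of the 10 neuronal and glial markers, 0 were called with all libraries and 9 were lower without replicate 3. The part of any of these cells in the fall of the members was not tested, and in bulk RNA fewer cells of a type cannot be told apart from less RNA per cell.

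Partners and relatives of the members were read from the same fit. Among 5 E protein and Id genes 2 were lower and 0 higher, namely Id1 (-1.16 ± 0.26), an inhibitor like ID2, and Tcf12 (-0.23 ± 0.07), an E protein that ID2 can block. Tcf12 was not called in 11 of 17 alternatives (adjusted p up to 0.338). Without replicate 3, 5 of these 5 genes were lower. Among 7 HMG-box relatives of Tcf7 and Tox, of which 6 were tested, 2 were higher and 1 lower. Tox2 rose by 1.00 ± 0.25 and Tox4 by 0.47 ± 0.09, whereas Tcf7l1 was at -1.73 ± 0.17. The median of this list turned from 0.71 to -0.23 without replicate 3, with 2 higher and 2 lower. Of 8 other paralogues, of which 7 were tested, 3 were lower and 0 higher, and 5 were lower without replicate 3. The lower genes included Gata1 (-3.10 ± 0.54) and Fli1, an ETS factor (-1.27 ± 0.12). Gata1 is also a gene of mast cells and basophils, whose 6 markers summed to 305 to 371 CPM in Unstimulated and 129 to 185 CPM in stimulated libraries. Only 2 of these markers passed the filter on low counts, and 2 were lower (median -4.61). The part of such cells was not tested.

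Among 25 other factors of ILC progenitors and ILC2 function, 5 were higher and 10 lower, and 8 and 11 without replicate 3. Irf4, Batf and Notch1, which act in activated lymphocytes and in ILC2 development, rose by 2.42 ± 0.27, 1.27 ± 0.13 and 0.94 ± 0.20. Zfpm1, which encodes the GATA cofactor FOG-1, Bach2 and Klf2 were at -1.39 ± 0.14, -1.36 ± 0.11 and -1.34 ± 0.33. Their median was -0.08, beside 0.06 over all genes, and turned to 0.09, beside -0.05, without replicate 3. Of 10 factors of other lymphoid fates, 8 were tested, of which 3 were lower, Zbtb7b and Ikzf2 among them, and 0 higher. Of 13 ILC2 markers and products 4 were higher and 7 lower, the same counts as without replicate 3. Areg, the amphiregulin gene, rose by 3.36 ± 0.24. Il17rb, a chain of the IL-25 receptor, was at -3.07 ± 0.31 and Thy1, which encodes CD90, at -2.52 ± 0.12.

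Neighbouring genes were read from the same fit to see whether a whole locus moved with its member. Ets1 and Fli1 are 93360 bases apart on chromosome 9 and moved differently. Fli1 was at 177 to 182 CPM in Unstimulated and 56.0 to 84.0 CPM in stimulated libraries, with no overlap, whereas Ets1 lay higher in 3 of the 4. Beside Tcf7, Skp1a was not called (0.13 ± 0.11) and Vdac1 was higher (0.38 ± 0.06), against -1.32 for Tcf7 itself. Beside Gata3, Taf3 was not called (0.17 ± 0.08), while the low lincRNA Gm13219, 409402 bases away and at 2.87 CPM or less, was higher (3.41 ± 0.71). Other neighbours called were Rnf144a, 1203824 bases from Id2 (-1.18 ± 0.35), and Usp28, 149153 bases from Zbtb16 (-1.02 ± 0.27). On either side of Tox these were Nsmaf (-0.32 ± 0.10) and Car8 (1.498 ± 0.17), at 232082 and 1151805 bases. Of the genes that overlap exons of Gata3 or Gfi1, none exceeded 3.12 CPM in the stimulation experiment and none was called with all libraries. Without replicate 3, A430072P03Rik, which overlaps Gfi1, was higher (0.77, edgeR adjusted p = 0.00396), as was Gfi1. In that fit Taf3 (beside Gata3), Ice2 (Rora), Rpap2 (Gfi1) and Gm27162 (Ets1) were called higher as well. Vps13c, 658148 bases from Rora, and Vrk1 and Setd3, 1832977 and 102829 bases from Bcl11b, were called lower.

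**Figure D5:**
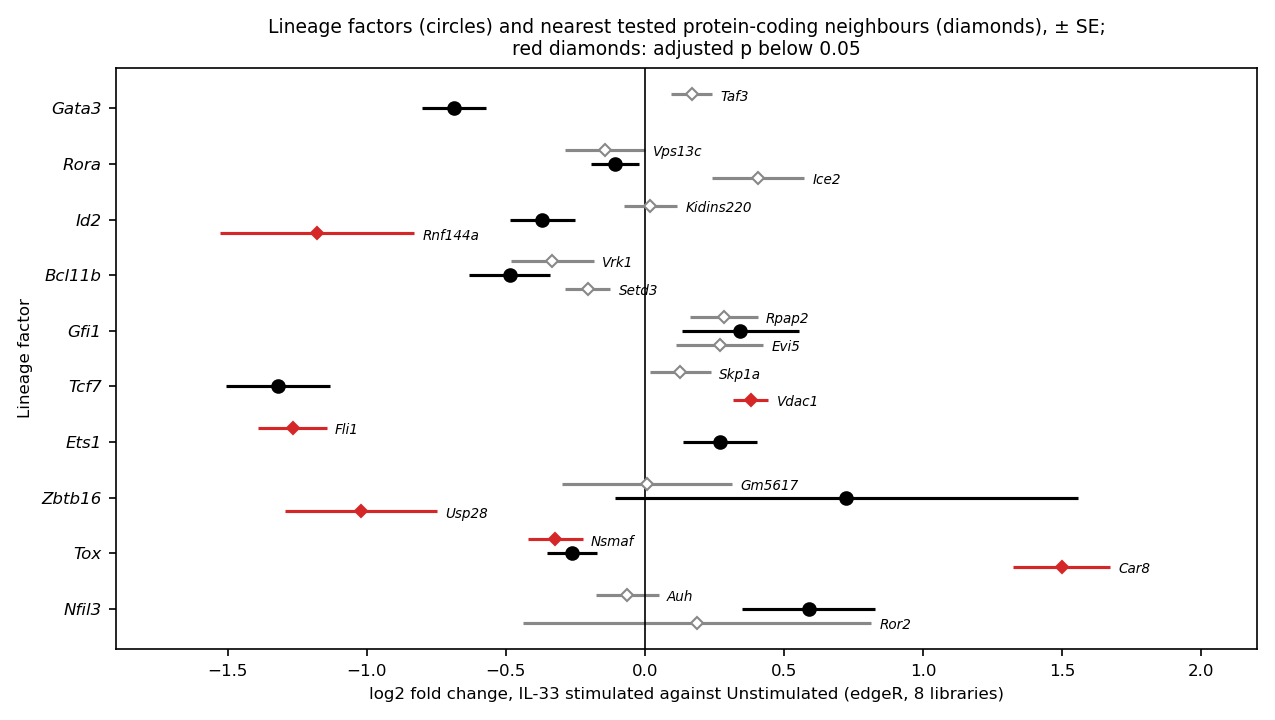
Log2 fold change ± SE (edgeR, 8 libraries) of IL-33 stimulated against Unstimulated for each lineage factor (circles) and its nearest tested protein-coding neighbours (diamonds, red where the adjusted p is below 0.05). Fli1 lies at -1.27 beside Ets1 at 0.27, and Vdac1 at 0.38 beside Tcf7 at -1.32.

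The genes whose log2 CPM followed each member most closely over the 8 libraries of the stimulation experiment were found among 10810 genes with a mean of at least 5 CPM. For Gata3 these were Vrk3 (Pearson r = 0.999) and Arhgap18 (0.999), for Id2 Ing1 (0.996) and Tmem129 (0.993), and for Tcf7 Klf5 (0.995) and Pdcd4 (0.993). Bcl11b was nearest to Dpp7 (0.988) and Sh3bp4 (0.982), and Rora to 2510002D24Rik (0.986) and Synj2 (0.977). Gfi1 was nearest to Pfas (0.995) and Golga5 (0.994), Ets1 to Ppp2r3c (0.974) and Orc1 (0.965), and Nfil3 to Gtf2b (0.992) and Snrnp35 (0.987). Tox was nearest to Bcam (0.988) and Eln (0.980), and Zbtb16, whose pattern was set by replicate 3, to Hdac5 (0.991) and 3110043O21Rik (0.988). These values describe 8 libraries that fall into 2 groups, so any gene with a like group difference scores high.

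The second comparison asked whether the lineage factors differed when Prdm1 was deleted. No member was called with all 6 libraries (0 of 10 by edgeR, with 0.756% of the 17335 genes tested called). At an unadjusted edgeR p below 0.05, which 2071 of the 17335 genes met in either direction, 3 members (Rora, Tcf7 and Zbtb16) were higher and none was lower. DESeq2 called Rora and Tcf7 as higher, beside 556 genes higher and 550 lower. Without Control replicate 2, Tcf7, Zbtb16 and Rora were higher and Gfi1 and Id2 lower (5 of 10, against 14% of the 17968 genes tested, 8.25% as higher and 5.72% as lower). The groups did not overlap for 4 of 10 members with all libraries (22.6% of all genes) and for 6 of 10 without Control replicate 2 (50.5%). The median log2 fold change of the members was 0.04 with all libraries, beside -0.02 over all genes.

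Tcf7 had 4.29, 6.58 and 2.01 CPM in Control and 13.8, 11.9 and 8.69 CPM in Blimp-1-deficient libraries. Every Blimp-1-deficient library was above every Control. The Control values rested on 356, 27 and 190 counts. The log2 fold change was 1.52 ± 0.43 (edgeR adjusted p = 0.223) and 1.88 ± 0.34 without Control replicate 2 (adjusted p = 0.0148). With a Blimp-1-deficient library left out as well, Tcf7 was still called in each of 3 fits, at 1.73 to 2.05. With a further Control left out it was also called, at 2.53 and 1.42, but these fits hold 1 Control library, which is assumed to vary like the Blimp-1-deficient ones; the same holds below wherever a second Control is left out. The levels in the Blimp-1-deficient libraries, after 72 h of IL-33 and IL-25, and those of the Unstimulated libraries of the other experiment come from separate tables and were not compared.

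Zbtb16 was at 0.350, 0 and 0.317 CPM in Control and 0.761, 0.980 and 0.797 CPM in Blimp-1-deficient libraries. The groups did not overlap, but the counts were low, at 29, 0 and 30 against 63, 76 and 77. The 0 in Control replicate 2 allows up to 0.731 CPM (3 counts, counting error only), which is close to the level in the Blimp-1-deficient libraries. edgeR put the log2 fold change at 1.56 ± 0.55 (adjusted p = 0.328) and 1.35 ± 0.27 without Control replicate 2 (adjusted p = 0.0212). With a further library left out its adjusted p lay between 0.0391 and 0.0897, and the call ended in 3 of the 5 cases: without Control replicate 1 or Control replicate 3, each leaving 1 Control library, or without Blimp-1-deficient replicate 2.

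Rora was at 268, 256 and 277 CPM in Control and 341, 333 and 365 CPM in Blimp-1-deficient libraries, with no overlap. Its log2 fold change was nearly the same with all libraries (0.38 ± 0.10, edgeR adjusted p = 0.187) and without Control replicate 2 (0.36 ± 0.07, adjusted p = 0.0148). With a further library left out it was called only without Blimp-1-deficient replicate 1 or 2, and its adjusted p reached 0.0907.

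Gfi1 was at 49.7, 35.1 and 56.8 CPM in Control and 36.5, 41.4 and 37.4 CPM in Blimp-1-deficient libraries. Control replicate 2 was below the whole Blimp-1-deficient range and the other Controls were above it. This came to a log2 fold change of -0.31 ± 0.18 (edgeR adjusted p = 0.573) and -0.46 ± 0.08 without Control replicate 2 (adjusted p = 0.0127). Id2 followed the same pattern, at 844, 595 and 827 CPM in Control and 648, 721 and 616 CPM in Blimp-1-deficient libraries. On the log2 scale the change was -0.19 ± 0.17 (adjusted p = 0.737) and -0.33 ± 0.08 without Control replicate 2 (adjusted p = 0.0455). With a further library left out the Id2 call ended in all 5 cases, with adjusted p from 0.0524 to 0.189, and that of Gfi1 ended without Control replicate 3 (adjusted p = 0.0566).

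Gata3 was at 551, 781 and 597 CPM in Control and 491, 509.9 and 522 CPM in Blimp-1-deficient libraries. The groups did not overlap, and the highest Control was replicate 2. The fitted log2 difference was -0.34 ± 0.16 (edgeR adjusted p = 0.481) and -0.17 ± 0.07 without Control replicate 2 (adjusted p = 0.136). Bcl11b, Ets1, Tox and Nfil3 overlapped between the groups and were not called either way. Bcl11b was at 181 CPM in Control replicate 2 and at 104 to 118 CPM in the other 5 libraries. Its log2 fold change was -0.21 ± 0.21 with all libraries and 0.07 ± 0.07 without Control replicate 2. Tox was at 22.7 to 24.98 CPM in all 6 libraries, with a log2 fold change of 0.0035 ± 0.092 (-0.017 ± 0.064 without Control replicate 2). Nfil3 was at 32.2, 20.7 and 37.5 CPM in Control and 30.1 to 34.8 CPM in Blimp-1-deficient libraries, with Control replicate 2 the lowest, and its log2 fold change was 0.07 ± 0.21 (-0.11 ± 0.09 without that library). Ets1 was at 480.3 to 616 CPM in Control and 546 to 617 CPM in Blimp-1-deficient libraries, with a log2 fold change of 0.13 ± 0.14 (0.06 ± 0.09 without Control replicate 2).

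Sums of markers of other cells were read in this comparison too. The groups did not overlap for ILC3 markers or for mast cell and basophil markers. They overlapped for T cell and myeloid markers. The summed CPM of 5 ILC3 markers was 1.95 to 5.76 in Control (4.05 and 5.76 without replicate 2) and 11.8 to 28.6 in Blimp-1-deficient libraries. Of the 4 tested, 4 were above 0 (median 2.35), 1 was called higher with all libraries and 2 without Control replicate 2. Rora, Tcf7 and Zbtb16 are expressed in ILC3s and their progenitors as well. T cell markers summed to 43.5 to 54.8 CPM in Control and 54.4 to 62.9 CPM in Blimp-1-deficient libraries, with 0 of 11 called with all libraries and 1, Trbc1, higher without Control replicate 2. Epithelial and stromal markers summed to 179 and 252 CPM in Control replicates 1 and 3, and to 2691 CPM in Control replicate 2. In Blimp-1-deficient libraries they summed to 386 to 540.0 CPM. Of 5 tested, 0 were called with all libraries and 1 was higher without Control replicate 2. Myeloid markers summed to 18.2 to 96.3 CPM in Control and 20.3 to 84.7 CPM in Blimp-1-deficient libraries, with 0 of 6 tested called and 2 higher without Control replicate 2. Mast cell and basophil markers summed to 137 to 151 CPM in Control and 163 to 211 CPM in Blimp-1-deficient libraries, with 0 of 2 tested called. Of 13 ILC2 markers and products, 12 were tested and 0 called with all libraries. Without Control replicate 2, 3 of them were higher and 5 lower, and their sum was 21079 and 20734 CPM in Control and 13177 to 17736 CPM in Blimp-1-deficient libraries, beside 11831 CPM in Control replicate 2. Most of that sum was Il5 and Il13. Il5 was at 7560 and 7375 CPM in Control replicates 1 and 3 and at 4542 to 6936 CPM in Blimp-1-deficient libraries. The values of Il13 were 7176 and 7382 CPM and 4400 to 6213 CPM. The part of these cells in the values of the members was not tested.

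Of the factors on the other lists, Eomes was the one called lower with all libraries. Eomes, a T-box factor of NK cells, was at 2.19 to 2.39 CPM in Control and 0.26 to 0.52 CPM in Blimp-1-deficient libraries (-2.65 ± 0.36, edgeR adjusted p = 0.0398). The Eomes call ended when any library but Control replicate 2 was left out, with adjusted p from 0.142 to 0.254. Without Control replicate 2, 1 of 5 E protein and Id genes was higher (Id3), as was 1 of 7 HMG-box relatives (Sox4); among 8 other paralogues, 2 were higher, Gata2 among them, and 1 was lower (Fli1). Fli1 was at 81.5 to 95.5 CPM in Control and 59.0 to 71.9 CPM in Blimp-1-deficient libraries. Among 25 other factors of ILC progenitors and ILC2 function 5 were higher (Runx1, Hes1, Foxo1, Stat5b and Stat6) and 5 lower (Runx2, Ikzf1, Pparg, Zfpm1 and Klf2). Among 10 factors of other lymphoid fates 3 were higher, Bcl6 and Zbtb7b among them, and 2 lower (Eomes and Ikzf2). Apart from Eomes and Fli1, these genes were named after their values had been seen. No neighbour of a member was called with all libraries. Without Control replicate 2, Nnmt beside Zbtb16 (1.39, edgeR adjusted p = 0.0211) and Ror2 beside Nfil3 (1.61, adjusted p = 0.0309) were higher, and A430072P03Rik, which overlaps exons of Gfi1 (-0.68, adjusted p = 0.0461), and Fli1 beside Ets1 (-0.33, adjusted p = 0.0441) were lower. With all libraries Skp1a and Vdac1, which flank Tcf7, were at -0.10 ± 0.11 and 0.05 ± 0.16, and Vps13c and Ice2, which flank Rora, at 0.08 ± 0.10 and 0.04 ± 0.15. Vdac1 turned to -0.08 without Control replicate 2.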

How the data were processed

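ILC2s of mouse lung were profiled with SMART-seq v4 and Nextera XT. Trimming (cutadapt), alignment to GRCm38 (HISAT2) and counting per gene (Subread) were done by the authors; the submitters' processing notes name Bowtie2, Subread, DESeq2 and mm10. The deposited raw counts and the TPM values made by the authors were used (4 tables, 53278 genes, 14 libraries). TPM equalled counts divided by gene length and scaled to a sum of 1e+06 per library.

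Each experiment was fitted alone with edgeR 4.0.16 in R 4.3.3 (TMM factors, default low-count filter, quasi-likelihood test, two-sided, Benjamini-Hochberg adjustment over all genes tested, threshold 0.05). CPM are counts scaled to 1e+06 of the TMM-scaled library size. SE are the absolute log2 fold change over the root of the F statistic. Alternatives were DESeq2 1.42.0, limma 3.58.1 on log2(TPM + 1) and log2(TPM + 0.1) where TPM averaged 1 or more, other scalings and filters, a replicate block, and each library left out. Fits on TPM or library size without the doubted library, and with a further library left out, were added after seeing the data.

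The members and gene lists were chosen with earlier results of these data known. Named are all members, Prdm1, the 3 largest called rises and falls of each other list, called or overlapping neighbours, and the 2 genes most like each member. The edgeR fit was tested on simulated data with the spread between libraries of the full data. In the Blimp-1 design it recovered 0 of 61 genes changed 1.5-fold, 23 of 77 changed 2-fold and 28 of 60 changed 4-fold. In the stimulation design it recovered 4 of 75, 21 of 65 and 33 of 55. More were recovered when the spread (dispersion) was set to 0.25 of that. Changes of this size in a member can therefore be missed with all libraries. Libraries came from separate mice. Intervals from counts of 0 cover counting error only. A few genes that the naming rule selects are not reported here.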

Additional observations from a re-analysis of the deposited data

Results flagged for a closer look

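In 3 of the members, IL-33 stimulated replicate 3 lay further from the other stimulated libraries than Dixon's 95% limit for 4 samples allows (taken on the gap to the nearest library over the range of the group). Its Zbtb16 value of 14.4 CPM was above the nearest at 1.81 CPM (ratio 0.963). Gfi1, at 34.5 CPM, was below the nearest at 64.3 CPM (ratio 0.925), and Gata3, at 492 CPM, was below the nearest at 660.0 CPM (ratio 0.841). Chance flags about 1 in 20 groups. The share of all genes flagged in this way was not counted, and the Blimp-1 groups of 3 libraries were not screened. Replicate 3 also stood apart over all genes tested. The mean SD of its log2 ratios to its group was 1.825, against 0.885 to 0.917 for the other stimulated libraries. The 3 flags are therefore not read as particular to the members.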

How the results depend on the processing

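Leaving out single libraries moved the members called in the stimulation comparison to 0 to 3 higher and 2 to 6 lower, and the genes called overall to 1852 to 4328 higher and 1820 to 4666 lower. In the Blimp-1 comparison these were 0 to 3 and 0 to 2 members, and 0 to 1483 and 0 to 1027 genes, with the highest counts always from leaving out the doubted library. With a further library left out, 3 members were higher each time after IL-33, where 8882 to 9663 genes had an unadjusted p below 0.05. Over all 26 alternatives after IL-33, 2 to 7 members were lower. When a Blimp-1-deficient library was left out besides Control replicate 2, 2 to 3 members were higher and 1 lower, where 4633 to 4858 genes had such a p. Zbtb16 lay between -0.90 and 1.0996 after IL-33 when single libraries were left out, and between -1.08 and -0.67 with a further one. In Blimp-1-deficient libraries the corresponding ranges were -0.35 to 0.070 and -0.0065 to 0.14 (Bcl11b), -0.021 to 0.038 and -0.044 to 0.013 (Tox), -0.11 to 0.26 and -0.21 to -0.0060 (Nfil3), and 0.062 to 0.24 and -0.040 to 0.16 (Ets1).

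DESeq2 called 1 member higher and 5 lower after IL-33, beside 3317 genes higher and 3201 lower. Without replicate 3 it called 3 members higher, beside 4578 genes higher and 4297 lower, with Zbtb16 at -0.86. In the Blimp-1 comparison it called 2 members higher and 556 and 550 genes, and without Control replicate 2 it called 3 members higher and 2 lower and 1932 and 1630 genes, with Bcl11b at 0.059, Tox at -0.028 and Nfil3 at -0.12. limma on log2(TPM + 1) called 1032 genes higher and 4655 lower after IL-33, with Gfi1 at -0.031, Ets1 at -0.075 and Zbtb16 at -0.092, and with a pseudocount of 0.1 these were 1027, 4546, -0.033, -0.075 and -0.30. Without replicate 3 it called 1 member higher and 7 lower, with Zbtb16 at -0.63, and library size alone called 2 and 7, with Zbtb16 at -1.08. The medians of all genes were -0.275 and -0.231 there, and 9320 and 10086 genes had an unadjusted p below 0.05. In the Blimp-1 comparison limma called 1 gene higher and 1 lower, with Gata3 at 1.44, Id2 at 1.59, Bcl11b at 1.45 and Gfi1 at 1.24, and with a pseudocount of 0.1 it called 1 and 0, with 1.46, 1.61, 1.59 and 1.48. Library size alone turned these to 0.25, 0.20, 0.45 and 0.071, and a mean count of at least 50 gave 149 and 107 genes and Tox at -0.010. Without Control replicate 2, limma called 2 members higher and 1 lower, with Bcl11b at 0.13 and Nfil3 at -0.044, and library size alone 3 and 1, with 0.13 and -0.048. In those fits 4087 and 5361 genes had an unadjusted p below 0.05. The cause of these differences was not tested. The median of all genes moved from -0.02 to 0.45 (library size) and 1.28 (TPM) in the Blimp-1 comparison with all libraries.

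The replicate numbers were not taken as pairs, because the libraries came from separate mice. Correlations of same-numbered libraries were -0.145 to 0.282 in the stimulation and -0.134 to 0.122 in the Blimp-1 experiment. The same-numbered library was the closest for replicates 2 and 3 of the stimulation and replicate 3 of the Blimp-1 experiment. These few values cannot settle whether samples were paired. With the replicate block, 0 members were higher and 3 lower after IL-33, beside 1802 genes higher and 1898 lower, and Zbtb16 was at -0.078. In the Blimp-1 comparison 0 genes were called higher and 0 lower with it.

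Among the other named genes none turned, but Id1, Klf2, Notch1, Nsmaf, Rnf144a, Tcf12, Tox2, Tox4, Trac, Usp28 and Vdac1 were not called after IL-33 under at least 1 alternative. In the Blimp-1 comparison Eomes was not called in 7 of 13 alternatives (adjusted p up to 0.254) and Prdm1 in 7 of 15 (adjusted p up to 0.641), namely library size alone, both TPM scales and the block, and without any 1 of the Blimp-1-deficient libraries, although Prdm1 stayed below 0 in all 15. Zbtb16 had no value on TPM or with a mean count of at least 50 in the Blimp-1 comparison, being below the filters. Depth limits Zbtb16 and, in Control replicate 2, Tcf7, which rested on 27 counts there.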
